A study of Mus musculus with 6 samples.

Results

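Type I interferon-stimulated antiviral genes were examined in RAW264.7 cells, a mouse macrophage line, with and without knockdown of Trem2. The set comprised 38 genes, chosen by name as the ligand Ifnb1, its receptor chains, factors that carry its signal, sensors of foreign nucleic acid, antiviral effectors and regulators. All 38 were present among the 56092 gene symbols of the deposited count table. Cells of the shNC group stably carried a lentiviral control vector, and cells of the shTrem2 group stably carried a vector with an shRNA against Trem2. The paper lists a control shRNA sequence for shNC, while the labels call it an empty vector control. Whether the control carried an shRNA is thus not settled. Both groups were first polarized with 20 ng/mL of IL-4 over 24 hours and then given debris of TCMK-1 cells, a mouse renal tubular line, over another 24 hours, and 3 libraries were sequenced per group. The vectors also encoded GFP and the lines were selected with puromycin, so both groups carry a vector. Neither the Trem2 shRNA nor the debris concentration used for these libraries is named in the sources used here. No source says that a group held more than 1 transduced line, so the knockdown and any other difference between the lines cannot be told apart, and cells without IL-4 were not analysed here.

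Type I interferons bind a receptor of the chains Ifnar1 and Ifnar2, whose kinases Jak1 and Tyk2 phosphorylate STAT factors. Stat2 and Irf9 are subunits of the resulting complex ISGF3, which binds interferon-stimulated response elements in the promoters of antiviral genes. In macrophages a low tonic signal through this receptor keeps part of the program transcribed without infection, and sensors of viral or self nucleic acid can raise it by inducing interferon.

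Trem2 itself (ENSMUSG00000023992) was lower in shTrem2. Its shNC values were 114, 122 and 144 CPM (library-size-scaled counts with TMM factors, written in the order of the replicates), and its shTrem2 values were 64.7, 63.2 and 80.2 CPM. The groups did not overlap, with a log2 fold change of -0.87 (standard error 0.094, FDR = 3.39e-06). Limma on the deposited FPKM values with a pseudocount of 0.1 gave -2.08. Here and below, log2 fold changes are shTrem2 relative to shNC from edgeR's quasi-likelihood test over 13528 genes, and FDR is the Benjamini-Hochberg adjusted p over all of them. Genes at an FDR under 0.05 are called higher or lower, and DEGs also differ by more than 1.5-fold. Nothing in the labels says that the replicates were separate cultures, so these p-values measure only the spread between the samples, which may be technical. In bulk RNA, fewer cells with a transcript and less of it per cell cannot be told apart. Total estimated counts ranged from 16054486 to 19835186 per library. Of 8 macrophage markers, 7 were tested and expressed, with summed levels of 4857 to 5779 CPM in shNC and 9849 to 11010 CPM in shTrem2, a gap that was mostly Lyz2. Of the 7, 5 were called higher and 2 lower, Itgam (log2 fold change -0.78) and Adgre1 (-0.56). Over all tested genes, 28.8% were called higher and 28.6% lower. Mertk had at most 3 counts. Arg1, the enzyme by which IL-4-polarized macrophages are usually defined, had 1 to 3 counts in every library, and Chil3, Retnla and Ccl24 had none. Mrc1 was the exception among the IL-4 response markers, at 5, 14 and 6 counts in shNC and 62, 71 and 56 in shTrem2. Among 14 tubular epithelial markers, 12 had at most 3 counts in any library. The others went in opposite directions. Aqp1 had 12, 6 and 5 counts in shNC and 38, 50 and 39 in shTrem2, while Lrp2 had 6, 5 and 8 in shNC and 3, 3 and 2 in shTrem2. Lymphocyte markers had at most 7 counts. Of 6 markers of plasmacytoid dendritic cells, the defining Siglech had at most 2 counts and 3 had over 3 counts in any library. The list summed to between 567 and 574 CPM in shNC and between 398 and 440 CPM in shTrem2, nearly all from Bst2, which is a member, and Tcf4, both called lower (log2 fold changes of -0.49 and -0.32). The part of these marker differences in the results below was not tested.

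The sequences that ISGF3 can read lie in the promoters, so the windows of a few members are shown, each from 250 bases before to 50 bases after the transcript start, as given by RefSeq on build GRCm38.p6. Ifit1, Ifit3 and Ifit3b are shown because they had the largest differences, Isg15 because it held the most matches, Bst2 because it was lower although it holds matches, and Cmpk2 because it rose strongly without one. Capitals mark the core of the response element, TTTCNNTTTC, or its reverse complement GAAANNGAAA, and overlapping matches run together. Each sequence is written on the strand of its gene.
Ifit1 (chr19:34640639-34640938, plus strand): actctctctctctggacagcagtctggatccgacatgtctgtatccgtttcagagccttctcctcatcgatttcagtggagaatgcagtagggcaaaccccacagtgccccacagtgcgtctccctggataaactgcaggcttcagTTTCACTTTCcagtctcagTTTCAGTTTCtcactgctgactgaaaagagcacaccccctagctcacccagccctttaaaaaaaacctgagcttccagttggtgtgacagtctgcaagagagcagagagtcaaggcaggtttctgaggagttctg
Ifit3 (chr19:34583279-34583578, plus strand): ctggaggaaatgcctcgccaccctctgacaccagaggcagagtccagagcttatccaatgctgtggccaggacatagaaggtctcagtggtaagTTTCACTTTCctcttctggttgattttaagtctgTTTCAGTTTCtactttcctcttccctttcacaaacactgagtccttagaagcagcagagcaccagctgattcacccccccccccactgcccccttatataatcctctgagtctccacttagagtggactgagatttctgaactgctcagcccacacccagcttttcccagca
Ifit3b (chr19:34607707-34608006, plus strand): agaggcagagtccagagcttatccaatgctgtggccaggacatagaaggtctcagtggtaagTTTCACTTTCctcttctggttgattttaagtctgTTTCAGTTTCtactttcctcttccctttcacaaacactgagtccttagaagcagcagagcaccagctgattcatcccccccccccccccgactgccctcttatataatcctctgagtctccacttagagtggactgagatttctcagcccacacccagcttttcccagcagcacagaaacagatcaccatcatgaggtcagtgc
Isg15 (chr4:156200769-156201068, minus strand): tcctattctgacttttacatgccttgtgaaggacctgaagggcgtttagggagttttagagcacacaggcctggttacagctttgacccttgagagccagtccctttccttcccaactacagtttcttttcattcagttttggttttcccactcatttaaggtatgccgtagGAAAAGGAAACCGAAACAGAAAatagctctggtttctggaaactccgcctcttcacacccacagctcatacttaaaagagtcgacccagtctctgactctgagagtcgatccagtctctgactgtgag
Bst2 (chr8:71537423-71537722, minus strand): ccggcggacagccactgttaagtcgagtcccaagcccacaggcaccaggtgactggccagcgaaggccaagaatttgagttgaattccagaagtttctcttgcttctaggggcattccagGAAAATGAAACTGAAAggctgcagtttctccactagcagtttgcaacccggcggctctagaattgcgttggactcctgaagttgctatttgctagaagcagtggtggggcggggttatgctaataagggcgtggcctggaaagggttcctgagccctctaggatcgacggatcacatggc
Cmpk2 (chr12:26468965-26469264, plus strand): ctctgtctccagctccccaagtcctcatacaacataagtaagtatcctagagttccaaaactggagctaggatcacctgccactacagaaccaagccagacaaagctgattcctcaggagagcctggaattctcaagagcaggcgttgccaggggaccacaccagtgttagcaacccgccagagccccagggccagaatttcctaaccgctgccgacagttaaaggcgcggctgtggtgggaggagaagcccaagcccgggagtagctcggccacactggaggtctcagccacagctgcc

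A window was listed for 27 of the 38 members, 32 windows in all. The core was present on either strand for 13 of the 27 (48.1%, exact 95% binomial interval 28.67% to 68.05%), and for 1079 of 27025 genes (3.99%) among all promoters of the same length. The interval covers counting error only and treats genes as separate, although some windows share sequence. Members were chosen as interferon-stimulated genes, known targets of ISGF3, so a share above that of all genes came with the choice. On the strand of the gene alone it was present for 6 members (22.2%), against 1.96% of all genes. The 13 were Bst2, Eif2ak2, Ifih1, Ifit1, Ifit3, Ifit3b, Isg15, Oas1a, Oas1g, Oas3, Rsad2, Stat2 and Trim30a. In Ifit1 the first bases of both matches lay 104 and 85 bases before the start, and in Isg15 the 3 overlapping matches lay 78, 72 and 66 bases before it. The Ifit3 and Ifit3b windows share an identical run of 169 bases that contains both matches, and those of Oas1a and Oas1g share a run of 73 bases. Among tested members, the median log2 fold change was 1.07 for the 13 with a match, 0.45 for the 13 with a window and no match, and 0.95 for the 11 without a listed window. The ranges overlapped widely, from -0.49 to 4.05 with a match and from -0.45 to 2.67 without. A match is a description of these letters, and its absence says nothing of the factor.

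Antiviral genes were higher in shTrem2 in nearly every role, while the receptor chains were not called. Of the 38 members, 37 passed the filter on low counts and Ifnb1 did not. Expression was higher for 32 of the 37 at an FDR under 0.05 and lower for 2, Bst2 and Isg20, where 28.8% of all tested genes were called higher and 28.6% lower. Ifnar1, Ifnar2 and Dtx3l were not called. Of the 32, 21 were DEGs, against 9.46% of all tested genes, and 15 rose by more than 2-fold, against 3.62%. Ifit3b passed the filter on low counts only through the shTrem2 libraries, and without it 31 of 36 were called higher (median log2 fold change 0.75). In the single libraries, all 3 shTrem2 values lay above all 3 shNC values for 32 members, against 32.1% of all tested genes, and below them for 3, against 31.7%. Groups without overlap were thus common over all tested genes, and these shares apply wherever the groups of a gene are said not to overlap. The median log2 fold change of the tested members was 0.77, beside 0.00 over all tested genes. By role, the medians were -0.07 for the receptor chains, 0.33 for Stat2 and Irf9, 0.73 for the sensors and 1.11 for the 18 antiviral effectors, of which 16 rose, 2 fell and 14 were DEGs.

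**Figure D1:**
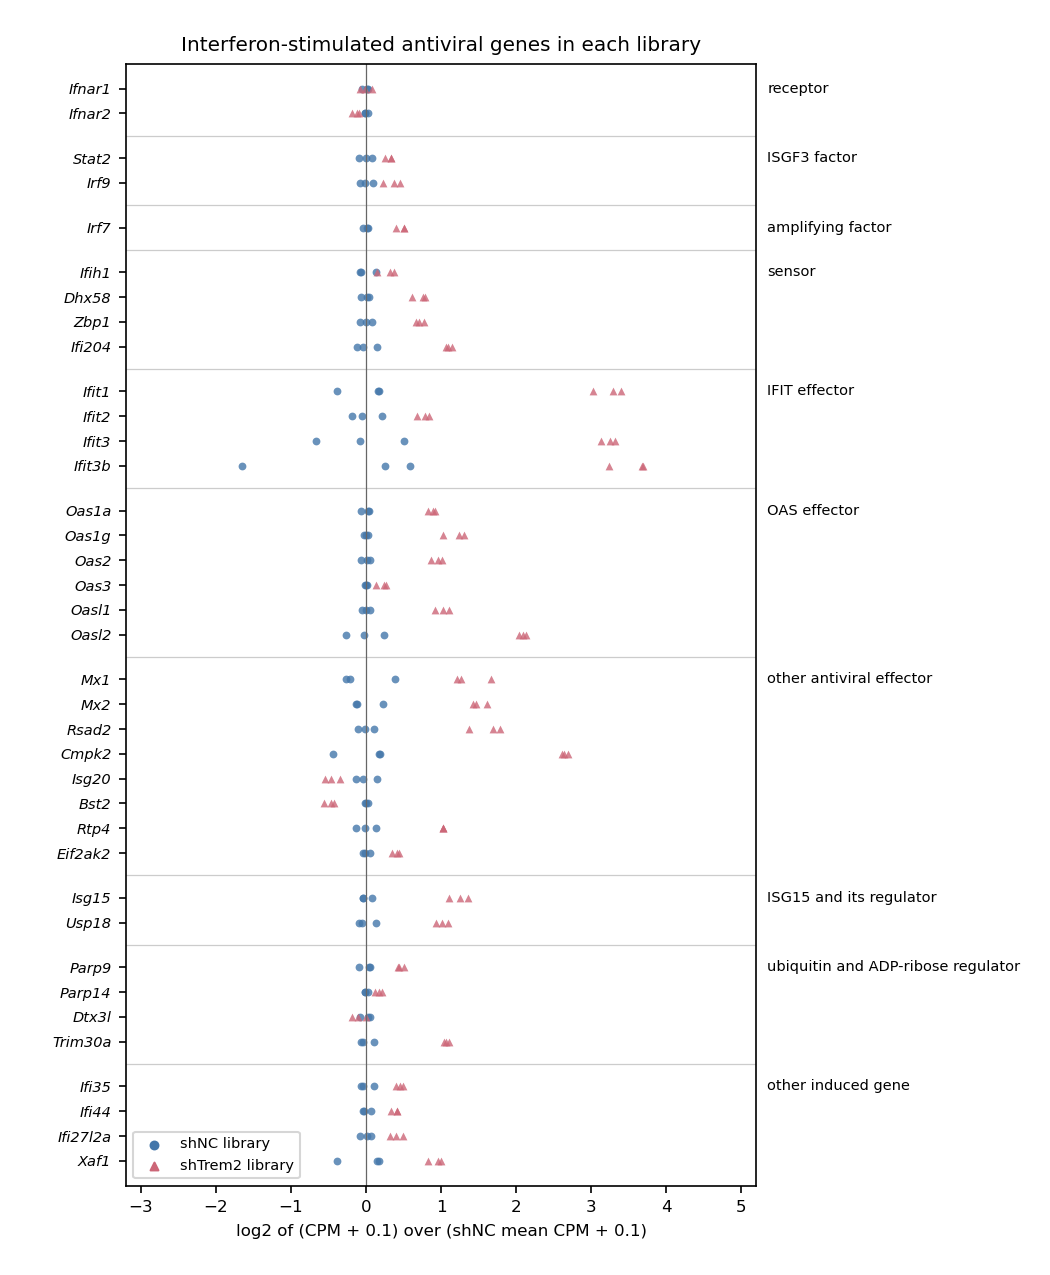
Each of the 37 tested members in each library, as log2 of CPM plus 0.1 over the shNC mean plus 0.1, in order of role; circles are the 3 shNC libraries and triangles the 3 shTrem2 libraries. Triangles lie right of the circles for 32 members and left of them for Ifnar2, Isg20 and Bst2, and Ifit1, Ifit3 and Ifit3b lie farthest right.

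The ligand was close to absent. Ifnb1, the interferon-beta gene that macrophages induce first, had 2, 0 and 0 counts in shNC and 2, 0 and 1 counts in shTrem2. These values are at or under the limit of 3 counts that a count of 0 allows, so no difference was detectable at this depth. All 19 other type I and type III interferon genes of the table had 0 counts in every library, where 3 counts correspond to between 0.153 and 0.189 CPM.

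Receptor transcripts were nearly level. Ifnar1, the chain that binds Tyk2, was measured at 70.3, 69.8 and 66.7 CPM in shNC and at 73.2, 68.4 and 65.2 CPM in shTrem2. The groups overlapped, and the log2 fold change was 0.00 with a 95% interval from -0.13 to 0.13 (FDR = 1.0). Ifnar2, the chain that binds Jak1, was at 51.5, 52.9 and 51.7 CPM in shNC and at 45.9, 48.9 and 47.7 CPM in shTrem2. Its groups did not overlap, yet the log2 fold change of -0.13 (standard error 0.056) missed the threshold (FDR = 0.0605), and it passed on the FPKM scale, at -0.33 (FDR = 0.017 from limma with a pseudocount of 0.1).

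Of the kinases, Tyk2 was clearly lower and Jak1 slightly higher. Jak1 was at 146, 157 and 155 CPM in shNC and at 174, 163 and 172 CPM in shTrem2, a log2 fold change of 0.15 (FDR = 0.0168). The Jak1 call was lost with scaling by library size only (FDR = 0.0526), without shNC replicate 1 (FDR = 0.121), without shTrem2 replicate 1 (FDR = 0.0737) and with limma on FPKM (0.084, FDR = 0.257 with a pseudocount of 1). Tyk2 was at 231, 229 and 219 CPM in shNC and at 123, 126 and 111 CPM in shTrem2, and with a log2 fold change of -0.92 (FDR = 1.07e-08) it was a DEG in the direction opposite to most of the set. For neither kinase did the groups overlap.

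Both ISGF3 factors of the set were higher in shTrem2, by less than most effectors. Stat2 was at 59.2, 63.2 and 66.3 CPM in shNC and at 79.3, 79.1 and 75.2 CPM in shTrem2, with a log2 fold change of 0.31 (standard error 0.058, FDR = 4.62e-04). Irf9, the subunit that contacts DNA, was at 72.1, 68.6 and 77.4 CPM in shNC and at 93.9, 99.99 and 85.3 CPM in shTrem2, with a log2 fold change of 0.36 (standard error 0.067, FDR = 4.37e-04). Neither reached 1.5-fold, and neither overlapped between groups. Irf7, the factor that amplifies interferon production and is itself induced by ISGF3, was at 158, 157 and 152 CPM in shNC and at 222, 223 and 207 CPM in shTrem2. Its log2 fold change was 0.48 (standard error 0.047, FDR = 1.33e-06), again under 1.5-fold.

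**Figure D2:**
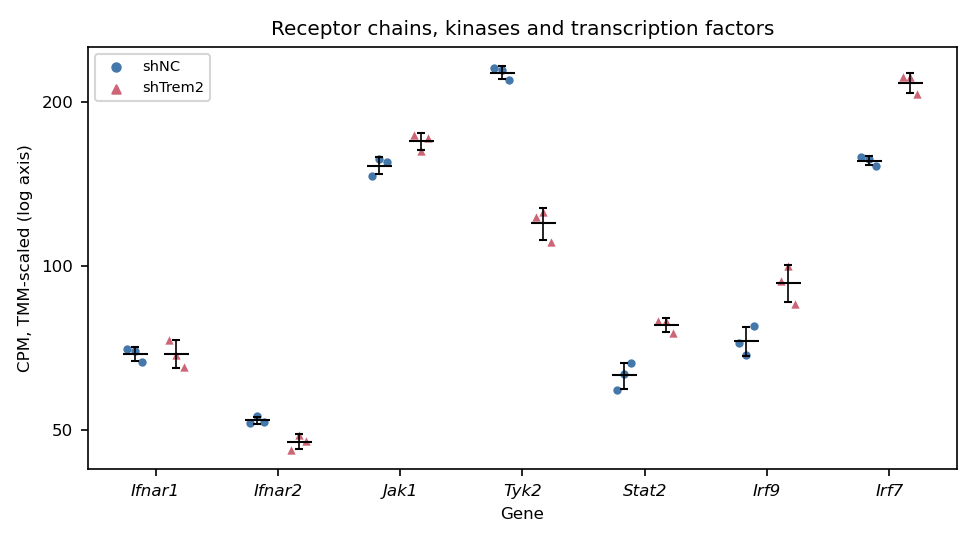
CPM on a log axis in each library for the receptor chains, their kinases, Stat2, Irf9 and Irf7; bars are the mean and SD of 3 libraries. Stat2, Irf9 and Irf7 lie higher in all 3 shTrem2 libraries and Tyk2 lower, and the receptor chains lie close together in both groups.

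All 4 sensors of the set were higher in shTrem2, and 3 were DEGs. Ifi204, a DNA-binding protein of the p200 family, was at 26.1, 27.7 and 31.6 CPM in shNC and at 63.3, 61.1 and 59.8 CPM in shTrem2, with a log2 fold change of 1.11 (standard error 0.072, FDR = 2.88e-08). Dhx58, which encodes the RIG-I-like helicase LGP2, was at 55.2, 51.3 and 54.3 CPM in shNC and at 92.8, 82.4 and 91.1 CPM in shTrem2 (log2 fold change 0.73, FDR = 3.14e-07). Zbp1, a sensor of Z-form nucleic acid that can start necroptosis, was at 3.604, 3.38 and 3.795 CPM in shNC and at 5.74, 6.22 and 5.92 CPM in shTrem2 (log2 fold change 0.73, FDR = 0.0014). None of the 3 overlapped between groups. Ifih1, the sensor of long double-stranded RNA known as MDA5, had the smallest difference, from 58.7, 58.0 and 67.3 CPM in shNC to 76.4, 79.4 and 67.8 CPM in shTrem2. Its groups all but touched, at 67.3 and 67.8 CPM, and the log2 fold change of 0.28 (FDR = 0.00492) was not called on the FPKM scale (FDR = 0.0841 with limma and a pseudocount of 1). Rigi, which encodes RIG-I and was named after its values were seen, had a log2 fold change of 0.58 (FDR = 6.29e-07).

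The IFIT family showed the largest differences. Its proteins bind viral RNA and block its translation, and the 4 genes lie together on chromosome 19. Ifit1 was at 2.24, 1.498 and 2.26 CPM in shNC and at 20.5, 21.9 and 16.95 CPM in shTrem2, which is 9.91-fold between the means and a log2 fold change of 3.31 (standard error 0.167, FDR = 2.91e-09). Ifit3 was at 0.746, 1.17 and 1.82 CPM in shNC and at 13.4, 12.8 and 11.6 CPM in shTrem2, with a log2 fold change of 3.32 (standard error 0.215, FDR = 2.88e-08). Both were scarce in shNC, with 27 to 41 counts for Ifit1 and 12 to 33 for Ifit3, and every shTrem2 library lay far above. Ifit3b, a close paralog of Ifit3 with which it may share reads, had 6, 0 and 5 counts in shNC and 76, 76 and 56 counts in shTrem2. Its log2 fold change of 4.05 (standard error 0.471, FDR = 6.71e-06) rests on few shNC counts and ran from 1.46 to 4.63 over the alternatives. Ifit2 was expressed at a higher level at the outset, at 29.6, 32.5 and 38.9 CPM in shNC, and was at 60.6, 58.0 and 53.8 CPM in shTrem2. Its log2 fold change was 0.77 (standard error 0.087, FDR = 5.41e-06), smaller than that of its neighbours. Ifit1 had 0.0599 counts per Ifit2 count in shNC (SD 0.0148) and 0.344 in shTrem2 (SD 0.032), a ratio chosen after the values were seen, with a two-sided exact permutation p of 0.1, the smallest that 3 against 3 libraries allow. For none of the 4 did the groups overlap.

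The 6 OAS members of the set all rose, from 0.22 to 2.09 on the log2 scale. OAS enzymes make oligoadenylates on double-stranded RNA, which signal the presence of viral RNA, while Oasl1 and Oasl2 encode OAS-like proteins. Oasl2 was at 13.5, 16.03 and 19.4 CPM in shNC and at 71.7, 70.0 and 67.5 CPM in shTrem2, with a log2 fold change of 2.09 (standard error 0.095, FDR = 1.13e-09). Its neighbour Oasl1, known as a brake on Irf7 translation, was at 30.0, 29.0 and 31.1 CPM in shNC and at 64.9, 57.1 and 61.1 CPM in shTrem2 (log2 fold change 1.02). Neither overlapped between groups. Oas1g was at 50.2, 51.0 and 52.0 CPM in shNC and at 121, 126 and 104 CPM in shTrem2 (log2 fold change 1.20), and its close paralog Oas1a at 106, 99.9 and 107 against 197, 193 and 185 CPM (log2 fold change 0.88). Oas2 rose by a like amount, from 101, 106 and 110 CPM in shNC to 214, 206 and 192 CPM in shTrem2 (log2 fold change 0.95). Oas3, the most abundant of the 6 by FPKM in shNC and below Oas1a and Oas1g in shTrem2, had the smallest difference, from 315, 316 and 312 CPM in shNC to 380, 371 and 345 CPM in shTrem2. At a log2 fold change of 0.22 (standard error 0.046, FDR = 0.00123) it was called and not a DEG, although Oas2 lies next to it. The number of Oas2 counts per Oas3 count was 0.336 in shNC (SD 0.0167) and 0.558 in shTrem2 (SD 0.00473), another ratio chosen after the values were seen.

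Not every gene of these loci moved with the members, as their neighbours show. The 6 annotated genes of the IFIT cluster and the 10 of the OAS1, OAS2 and OAS3 cluster were examined after their values were seen. In the IFIT cluster the neighbours Ifit1bl1 (0, 0 and 2 counts in shNC and 12, 15 and 11 in shTrem2) and Ifit1bl2 (1, 2 and 1 against 7, 25 and 14) were also higher in every shTrem2 library. Both are relatives of Ifit1 that may share reads with it. The OAS cluster was split. Oas1a, Oas1g, Oas2 and Oas3 rose, while Oas1b, an inactive relative of the synthetases, and Oas1c fell. Oas1b had 278, 344 and 287 counts in shNC and 223, 237 and 219 in shTrem2 libraries of greater depth (log2 fold change -0.56, FDR = 3.83e-04), and Oas1c had a log2 fold change of -0.44 (FDR = 0.00203). Oas1d had 22, 34 and 21 counts in shNC and 0, 0 and 2 counts in shTrem2, and Oas1h had 19, 23 and 12 counts against 12, 9 and 6 (log2 fold change -1.13, FDR = 0.0319). The Oas1h call rests on few counts. It was lost with DESeq2 (FDR = 0.119) and without shNC replicate 1 (FDR = 0.102) or 2 (FDR = 0.132) or shTrem2 replicate 2 (FDR = 0.0739) or 3 (FDR = 0.114), and its size fell to -0.395 over the alternatives. Oas1e and Oas1f had at most 4 counts. Within a library, Oas1a had 6.04 counts per Oas1b count in shNC (SD 0.768) and 16.3 in shTrem2 (SD 0.69), a ratio chosen after the values were seen.

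**Figure D3:**
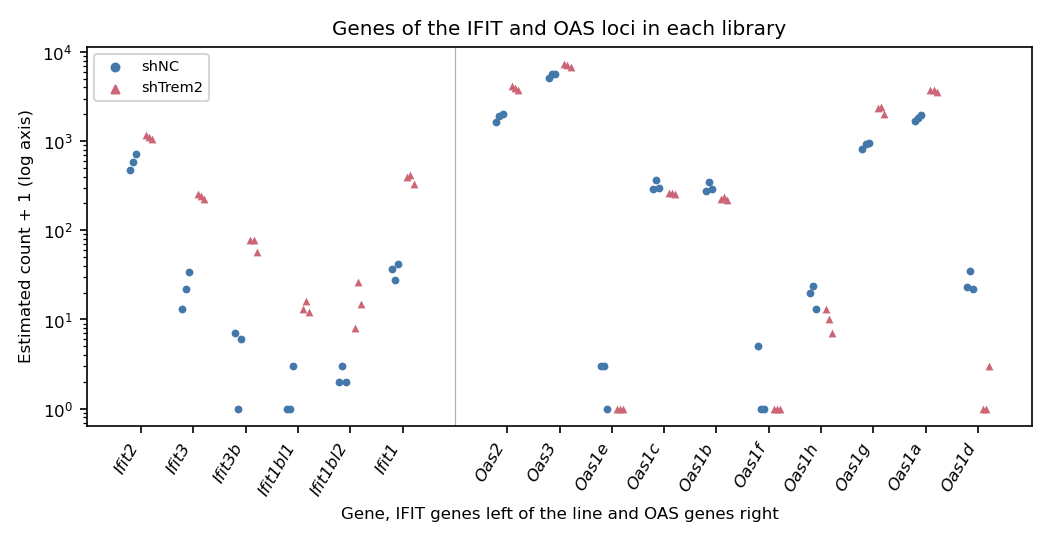
Estimated counts plus 1 on a log axis for the genes of the IFIT cluster, left of the line, and the OAS cluster, right of it; circles are shNC libraries and triangles shTrem2 libraries. Every IFIT gene is higher in shTrem2, while the 4 OAS members are higher and Oas1b, Oas1c, Oas1h and Oas1d lower, with 1 tie in raw counts for Oas1h.

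Of the 8 other antiviral effectors, 6 rose and 2 fell. Cmpk2, a mitochondrial nucleotide kinase induced by interferon, was at 7.64, 4.94 and 7.70 CPM in shNC and at 44.1, 42.7 and 41.9 CPM in shTrem2, which is 6.35-fold between the means and a log2 fold change of 2.67 (standard error 0.120, FDR = 1.03e-09). Its neighbour on chromosome 12, Rsad2, which encodes viperin, was at 9.94, 9.21 and 8.63 CPM in shNC and at 32.3, 30.1 and 24.2 CPM in shTrem2 (log2 fold change 1.64, FDR = 6.4e-08). The groups of both were far apart. Cmpk2 had 0.732 counts per Rsad2 count in shNC (SD 0.181) and 1.503 in shTrem2 (SD 0.198), with no overlap. This ratio was also chosen after the values were seen. The GTPases Mx1 and Mx2, which block viral nucleocapsids, had log2 fold changes of 1.44 (FDR = 1.92e-04) and 1.51 (FDR = 8.48e-08). Mx1 was the scarcer, at 1.49, 1.44 and 2.31 CPM in shNC and at 5.79, 4.34 and 4.17 CPM in shTrem2, while Mx2 was at 8.14, 8.27 and 10.4 against 27.6, 24.9 and 24.3 CPM. Neither overlapped between groups. Rtp4, a chaperone for receptors at the cell surface that also restrains RNA viruses, was at 50.2, 45.9 and 55.6 CPM in shNC and at 104, 103 and 103 CPM in shTrem2 (log2 fold change 1.03, FDR = 2.32e-08). Eif2ak2, which encodes the translation-blocking kinase PKR, was higher by 0.40 on the log2 scale (FDR = 7.6e-06), from 132, 134 and 140 CPM in shNC to 181, 172 and 184 CPM in shTrem2.

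Bst2 and Isg20 fell. Bst2, which encodes tetherin and holds budding virions at the cell surface, was at 431, 434 and 442 CPM in shNC and at 314, 323 and 295 CPM in shTrem2. All 3 shTrem2 libraries lay below shNC, with a log2 fold change of -0.49 (standard error 0.046, FDR = 9.69e-07), which is 1.4-fold between the means. Isg20, an exonuclease that degrades RNA, was at 15.4, 12.7 and 13.6 CPM in shNC and at 10.9, 9.51 and 10.04 CPM in shTrem2 (log2 fold change -0.45, standard error 0.114, FDR = 0.0039). Neither was a DEG, and both stayed lower and called in all 17 alternatives to the fit.

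Isg15 and its regulator rose together. Isg15, a ubiquitin-like protein that is attached to other proteins, was at 22.4, 22.4 and 24.4 CPM in shNC and at 59.5, 55.0 and 49.6 CPM in shTrem2 (log2 fold change 1.25, standard error 0.077, FDR = 1.91e-08). Usp18, the protease that removes Isg15 and also blocks signalling at Ifnar2, was at 88.04, 90.5 and 103 CPM in shNC and at 201, 190 and 179 CPM in shTrem2 (log2 fold change 1.01, standard error 0.064, FDR = 2.13e-08). In both the lowest shTrem2 library was well above the highest shNC library.

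Among the 4 regulators that act through ubiquitin or ADP-ribose, Trim30a stood apart. Trim30a, a ligase that restrains innate signalling, was at 57.9, 59.2 and 65.3 CPM in shNC and at 131, 125 and 128 CPM in shTrem2 (log2 fold change 1.07, standard error 0.056, FDR = 4.22e-09). Parp9, which forms a complex with Dtx3l, was at 88.9, 97.2 and 98.4 CPM in shNC and at 129, 135 and 127 CPM in shTrem2 (log2 fold change 0.46, FDR = 6.25e-06). Its partner Dtx3l, a ubiquitin ligase, was at 114, 122 and 124 CPM in shNC and at 119, 111 and 105 CPM in shTrem2. The Dtx3l groups overlapped, and the log2 fold change was -0.10 with a 95% interval from -0.23 to 0.02 (FDR = 0.148). The annotated spans of both genes overlap on chromosome 16. The paper describes a stranded library kit and an alignment that took read orientation into account. Whether the counting itself used strand is not stated in the sources used here. Parp9 had 0.792 counts per Dtx3l count in shNC (SD 0.00763) and 1.17 in shTrem2 (SD 0.0776), a ratio chosen after the values were seen that did not overlap between groups (exact permutation p = 0.1, the smallest possible). Parp14, a mono-ADP-ribosyltransferase next to them, was at 154, 159 and 154 CPM in shNC and at 181, 176 and 169 CPM in shTrem2. Its log2 fold change of 0.17 (FDR = 0.00613) was called from counts and not from FPKM (FDR = 0.0618 with limma and a pseudocount of 1).

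The remaining 4 induced genes were all higher, and 1 was a DEG. Xaf1, a pro-apoptotic partner of XIAP, was at 18.6, 27.1 and 27.6 CPM in shNC and at 48.7, 47.4 and 43.5 CPM in shTrem2 (log2 fold change 0.93, standard error 0.112, FDR = 9.98e-06). Ifi35 rose from between 44.4 and 49.8 CPM in shNC to between 61.1 and 65.1 CPM in shTrem2 (log2 fold change 0.45), and Ifi44 from between 389 and 417 CPM to between 503 and 532 CPM (0.39). Ifi27l2a, the member with the highest FPKM, was at 145, 154 and 160 CPM in shNC and at 201, 215 and 191 CPM in shTrem2 (log2 fold change 0.40, FDR = 2.55e-05). None of the 4 overlapped between groups, where all 3 shTrem2 libraries lay above shNC for 32.1% of all tested genes.

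Among tested members, differences were larger for those that were scarce in shNC. FPKM, which accounts for transcript length and so allows levels of different genes to be compared, ran in shNC from a mean of 0.127 for Ifit3b, 0.853 for Ifit1 and 0.88 for Ifit3 to 936 for Bst2 and 1105 for Ifi27l2a. The 9 members under 10 FPKM in shNC had a median log2 fold change of 2.09, from 0.73 to 4.05, and the 8 without Ifit3b one of 1.87, up to 3.32. The filter on low counts bears on this class, since Ifit3b passed only through shTrem2 and Ifnb1, at 0 to 2 counts in both groups, was not tested. The 28 members at 10 FPKM or more had a median of 0.45, from -0.49 to 1.25. Across the 37 members, Spearman's rho between shNC FPKM and log2 fold change was -0.52 and Pearson's r on log2 FPKM was -0.76 (-0.48 and -0.69 without Ifit3b), whereas over all 13525 tested genes with an FPKM rho was 0.04. Both measures share the shNC libraries, members are not independent of each other, and these values are a description. Low shNC values also leave wider errors, with standard errors of 0.471 for Ifit3b and 0.046 for Bst2.

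**Figure D4:**
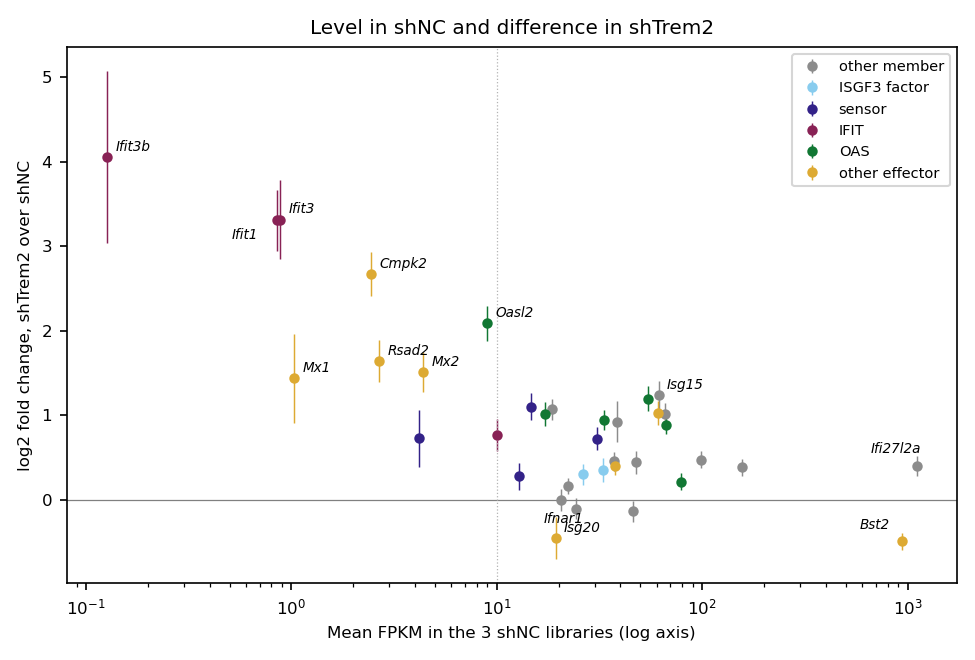
Log2 fold change with its 95% interval against the mean FPKM of the 3 shNC libraries on a log axis, 1 point per tested member, coloured by role; the dotted line marks 10 FPKM. Members left of the line range from 0.73 to 4.05, and those right of it from -0.49 to 1.25.

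The libraries of a group also differed in the set as a whole. Among shTrem2 libraries, replicate 3 was the lowest for 29 of the 37 tested members (78.4%), against 36.6% of all tested genes. Replicate 1 was the highest for 24 (64.9%), against 28.2% of all tested genes. Among shNC libraries, replicate 3 was the highest for 27 members (73%), against 38% of all tested genes. Within a group the members thus tended to vary together. The median coefficient of variation of the members was 5.72% in shNC and 5.64% in shTrem2, beside 6.4% and 6.88% over all tested genes. Without shNC replicate 3 the median log2 fold change of the members was 0.89, and 32 members were called higher and 2 lower whichever library was left out.

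Other genes of the pathway did not all follow. A further 92 interferon-stimulated genes were listed, of which 88 were in the table and 77 tested. Of these, 55 were higher, 8 lower and 14 not called, beside 28.8% and 28.6% of all tested genes higher and lower. DEGs were higher for 26 and lower for 2, beside 9.46% and 12.4% of all tested genes, and the median log2 fold change was 0.45. The largest rises were in Trim21, an intracellular antibody receptor (1.95), Ifi211 of the p200 family (1.91), Trim34a (1.90) and Herc6, the ligase that attaches Isg15 in mice (1.89). Among 16 tested genes of nucleic acid sensing and its adaptors, 7 were higher, 6 lower and 3 not called. Tlr3, the endosomal receptor for double-stranded RNA, rose from 5.47, 5.27 and 6.38 CPM in shNC to 18.7, 18.2 and 20.4 CPM in shTrem2 (log2 fold change 1.74, FDR = 3.62e-08), while its adaptor Ticam1 fell by 0.88 on the log2 scale. Ikbke, a kinase that activates Irf3 and Irf7, fell from 133, 130 and 104 CPM in shNC to 23.2, 27.6 and 25.7 CPM in shTrem2 (log2 fold change -2.26, FDR = 5.64e-10). Tlr7, the receptor for single-stranded RNA, rose by 0.76. Calls in both directions were also common over all tested genes, of which 28.8% were higher and 28.6% lower.

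Of the 6 tested interferon regulatory factors outside the set, 1 was higher, 3 were lower and 2 were not called. Over all tested genes, 28.8% were called higher and 28.6% lower. Irf8, a factor of myeloid identity, was at 103, 109 and 102 CPM in shNC and at 51.3, 54.3 and 56.9 CPM in shTrem2 (log2 fold change -0.95, FDR = 1.53e-08). Irf5 (-0.42) and Irf3 (-0.28), which drive interferon and cytokine genes, were called lower, and Irf2 (0.53) was called higher. Irf1 had a log2 fold change of 0.14 (FDR = 0.163) and Irf4 one of 0.17 (FDR = 0.313). Of 11 negative regulators of interferon signalling, 2 were higher and 3 lower, where the same shares of all tested genes apply as for the sensing genes. Trim24 (-0.87), the phosphatase genes Ptpn6 (-0.44) and Ptpn1 (0.29), and Ube2l6 (0.38), which conjugates Isg15, had the largest differences among those called. Ube2l6 was also listed among the other interferon-stimulated genes and is counted as higher in both lists. Of 8 genes that remove or edit nucleic acids, 4 were higher and 4 not called, where 28.8% of all tested genes were called higher. Those higher were Rnaseh2c (0.43), the DNA exonuclease gene Trex1 (0.43), the RNA editor gene Adar (0.29) and Skic2 (0.25), the last of which was not called from FPKM (0.10, FDR = 0.291 with limma and a pseudocount of 1).

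**Figure D5:**
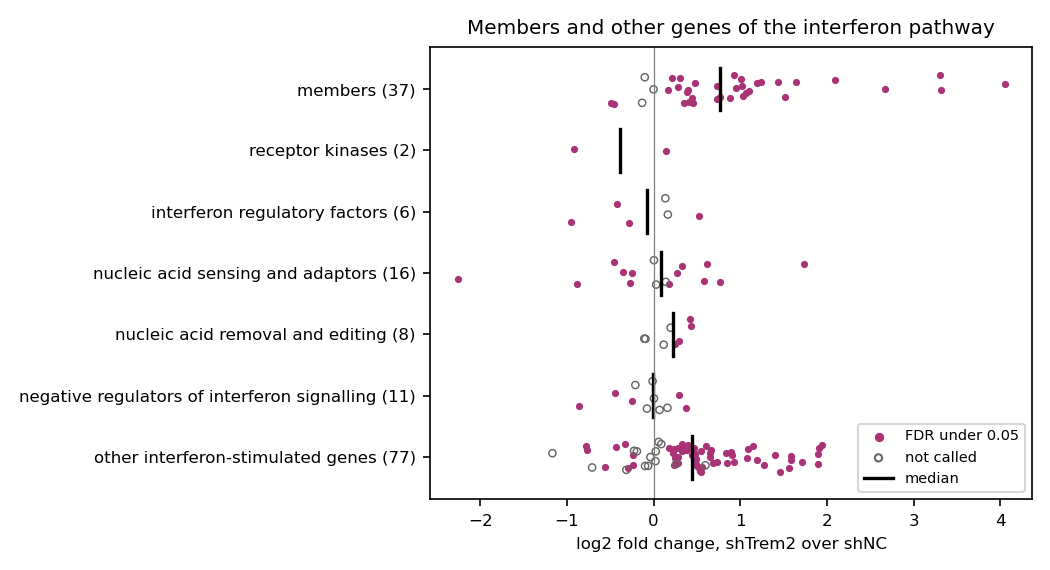
Log2 fold changes of the tested members and of 6 other lists of the interferon pathway, 1 point per gene with the number tested in brackets; filled points have an FDR under 0.05 and bars are medians. Members and other interferon-stimulated genes lie mostly right of 0, with medians of 0.77 and 0.45, and the sensing, regulatory and factor lists straddle it.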

How the data were processed

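RNA of 6 libraries of RAW264.7 cells, 3 per group, was sequenced from a stranded mRNA preparation. According to the submitters' processing notes, the authors used fastp, HISAT2 and StringTie with build GRCm39. The counting tool is not given in the sources used here. The authors deposited estimated counts per transcript with gene symbols, not scaled for depth, of which 79.3% of nonzero values were not whole within 1e-06. They also deposited FPKM values per gene, scaled for depth and transcript length. The authors' 2 columns of group means were not used.

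Estimated counts were summed per symbol and rounded. Rows without a symbol (0.908% to 1.12% of counts) were left out. Genes passing filterByExpr were tested with edgeR 4.0.16 (TMM, glmQLFit, glmQLFTest) in R 4.3.3, without covariates, with Benjamini-Hochberg adjustment, after tests on simulated data. The biological coefficient of variation was 0.0598. Intervals of fold changes use the t distribution of that fit. DESeq2 1.42.0, limma 3.58.1 (voom, and trend on log2 FPKM plus 1 or 0.1), other scalings and filters, a replicate block, summed paralogs and leaving out each library were alternatives. At these depths 3 counts are the limit that a count of 0 allows, which leaves out errors other than counting, as PCR copies are not separate molecules.

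Named genes were all members in the table, Trem2, the interferons, receptor kinases and interferon regulatory factors, and up to 4 called genes of largest change in each other list. Some genes of these lists are not reported here. The members and the lists were chosen with earlier results of these data known. Rigi, the marker genes' values, the ratios between genes and the neighbours in the IFIT and OAS clusters were added after values were seen. Promoter windows and gene positions came from RefSeq on GRCm38.p6, a build other than that of the files, and were matched by symbol only.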

Additional observations from a re-analysis of the deposited data

How the results depend on the processing

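Of 626 values of members under 17 alternatives, 612 kept their direction and side of the threshold, and 33 of 37 members did so throughout. Member calls ranged from 30 to 32 higher and 2 to 3 lower, and DEGs from 19 to 21. With a fold change over 2 required, edgeR gave 15 higher and 0 lower (2 lower without that limit), by construction. The median log2 fold change of the members, 0.77, was 0.681 on log2(FPKM + 1), and from 0.733 to 0.888 with 1 library left out (highest without shNC replicate 3). Counting matches on the strand of the gene alone gave the motif in 22.2% of members. Ifnar1, at 0.00, changed sign at sizes far under its error, at 0.003 with DESeq2, 0.000 with paralogs summed and from -0.042 to 0.03 with 1 library left out. Ifnar2 passed the threshold with upper quartile scaling (FDR = 0.035 from edgeR), library size only (FDR = 0.0227) and both FPKM fits. Ifih1, Parp14 and, outside the set, Jak1 and Skic2 lost it in both FPKM fits, and the cause was not tested. Same-numbered libraries did not deviate together (correlations of 0.006, -0.004 and 0.007). These values show no shared deviation, and they cannot settle whether the numbers mark paired cultures. The replicate block gave 32 members higher and 2 lower. Under the scalings tried, the median over all genes lay between -0.034 and 0.003. Values near 3 counts, as for Ifnb1 and Ifit3b in shNC, are limited by depth.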
